A study of Mus musculus with 28 samples.

Results

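Fibrinogen and the coagulation factors are plasma proteins that the liver makes and that form and limit the blood clot. The genes described here are Fga, Fgb, Fgg, F2, F5, F7, F10, F11, Plg and Proc, taken by name. All 10 had a row among the 55011 genes of the count table. Fga, Fgb and Fgg encode the alpha, beta and gamma chains of fibrinogen. F2 encodes prothrombin, F7, F10 and F11 encode the zymogens of clotting proteases, and F5 encodes the cofactor that factor Xa needs. Plg encodes plasminogen, the precursor of the protease that dissolves fibrin, and Proc encodes protein C, the anticoagulant protease that inactivates factors Va and VIIIa.

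Clotting runs from factor VIIa on tissue factor to factor Xa, which with factor Va turns prothrombin into thrombin, and thrombin cuts fibrinogen so that it polymerises to fibrin. Medullary thymic epithelial cells (mTECs) transcribe many genes of other tissues and display their products to developing T cells. HNF4A and HNF4G are nuclear receptors that drive gene programs of liver and gut epithelium, and HNF4A is a known regulator of coagulation factor genes in hepatocytes.

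The study sequenced RNA from sorted mTECs of C57BL/6 mouse thymus in 28 libraries that fall into 8 groups. Wild-type mTECs labelled Entero-hepato (n = 3) were set against Non-entero-hepato mTECs (n = 3). Post-Aire mTEClo came from double mutant thymi, Foxn1cre(+/-)Hnf4a(fl/fl)Hnf4g(-/-) (n = 4), from Hnf4a-removed thymi, Foxn1cre(+/-)Hnf4a(fl/fl)Hnf4g(+/-) (n = 3), from Hnf4g-removed thymi, Foxn1cre(+/-)Hnf4a(fl/+)Hnf4g(-/-) (n = 3), and from controls, Foxn1cre(+/-)Hnf4a(fl/+)Hnf4g(+/-) (n = 4). The mTEChi came from the double mutant (n = 4) and the control genotype (n = 4). Foxn1-Cre acts in thymic epithelium. The controls carry the Cre too, with 1 floxed Hnf4a allele and 1 disrupted Hnf4g allele, so mutants were compared with cells that lacked a copy of Hnf4g and, where the Cre had acted, of Hnf4a, and not with wild-type cells. The labels give neither age nor sex.

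Libraries held 4330120 to 8342583 counted reads. Levels are given as CPM, reads relative to the library size after scaling by trimmed means over all 28 libraries, and calls are from edgeR's quasi-likelihood test with Benjamini-Hochberg adjustment over all genes tested, at an adjusted p under 0.05. The 9 mTEC markers summed to 4320 to 15900 CPM across the libraries. Between the wild-type gates, Cldn4, Epcam, H2-Aa, Krt8 and Cd80 were called higher in Entero-hepato mTECs and Krt5, Aire and Foxn1 lower. Aire had 669 to 1089 CPM in Entero-hepato mTECs, against 1609 to 1719 CPM in Non-entero-hepato mTECs. Summed enterocyte markers stood at 5300 to 7560 CPM in Entero-hepato mTECs, against 295 to 347 CPM in Non-entero-hepato mTECs, and the 7 hepatocyte markers found of 8 listed at 1450 to 3140 CPM, against 103 to 177 CPM. Of these 7, Apoa1, Apob, Ttr and Serpina1b were called higher in Entero-hepato mTECs, Ahsg was called lower, and Alb and Hp did not pass. Hnf4g had 3.19 to 8.30 CPM in double mutant mTEClo, against 9.0 to 15.6 CPM in control mTEClo, and 5.19 to 12.8 CPM in double mutant mTEChi, against 15.3 to 22.4 CPM in control mTEChi. Neither difference was called by edgeR. Hnf4g had 6.23 to 9.20 CPM in Hnf4a-removed mTEClo and 7.58 to 8.77 CPM in Hnf4g-removed mTEClo, so its reads did not separate these genotypes. Hnf4a reads overlapped between mutants and controls in both subsets. The labels do not name the removed exons, and reads outside them do not check the deletion.

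The members lie in several places in the genome, and some lie side by side (build mm10/GRCm38, positions from GENCODE M21). Fgg (chr3:83007724-83015049, plus strand), Fga (chr3:83026076-83033627, plus strand) and Fgb (chr3:83040141-83049863, minus strand) span 42.1 kb. F7 (chr8:13026034-13035809) and F10 (chr8:13037308-13056676) share the plus strand with a gap of 1.5 kb, and Proz, which encodes the vitamin K-dependent protein Z, starts 4.24 kb after F10. F2 lies at chr2:91625320-91636414, F5 at chr1:164151838-164220277, F11 at chr8:45241174-45262031 and Plg at chr17:12378608-12419385. Annotated genes overlap Fgg (Gm30097), F5 (Gm16548 and Gm16588) and Plg (Slc22a3). The library kit does not mark strand, so reads in these overlaps cannot be told apart.

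The promoter windows of 4 members are shown. Fga and Fgg were called lower in double mutant mTEChi. F10 was called between the wild-type gates and in double mutant mTEClo, and its neighbour F7 was not. The difference between F7 and F10 was not tested. Each window runs from 250 bases before to 50 bases after the RefSeq start of the gene (GRCm38.p6), 5′ to 3′ on the gene's strand. RefSeq windows were matched for 8 of the 10 members. Capitals mark matches, on either strand, to the HNF4-type element CAAAGNNCA or to the HNF1 half-site GTTAATNA, which do not overlap each other in these windows.
Fga, chr3:83025903-83026202, plus strand: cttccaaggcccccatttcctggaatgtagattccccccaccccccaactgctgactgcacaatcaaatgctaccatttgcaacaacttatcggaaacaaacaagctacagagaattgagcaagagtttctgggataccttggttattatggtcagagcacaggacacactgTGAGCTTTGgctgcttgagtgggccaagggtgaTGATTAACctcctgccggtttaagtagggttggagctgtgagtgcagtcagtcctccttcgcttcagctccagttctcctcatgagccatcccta
Fgg, chr3:83007474-83007773, plus strand: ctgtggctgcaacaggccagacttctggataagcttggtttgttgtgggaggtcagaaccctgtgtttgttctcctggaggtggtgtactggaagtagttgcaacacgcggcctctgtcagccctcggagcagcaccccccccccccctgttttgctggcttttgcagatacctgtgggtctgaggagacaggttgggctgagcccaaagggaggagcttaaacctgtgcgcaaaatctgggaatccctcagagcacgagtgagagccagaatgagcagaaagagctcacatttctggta
F7, chr8:13025784-13026083, plus strand: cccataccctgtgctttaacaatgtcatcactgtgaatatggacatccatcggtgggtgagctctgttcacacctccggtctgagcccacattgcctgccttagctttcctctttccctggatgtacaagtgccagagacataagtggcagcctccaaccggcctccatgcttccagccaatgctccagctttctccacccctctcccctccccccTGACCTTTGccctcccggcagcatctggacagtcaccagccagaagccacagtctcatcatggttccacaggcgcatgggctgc
F10, chr8:13037058-13037357, plus strand: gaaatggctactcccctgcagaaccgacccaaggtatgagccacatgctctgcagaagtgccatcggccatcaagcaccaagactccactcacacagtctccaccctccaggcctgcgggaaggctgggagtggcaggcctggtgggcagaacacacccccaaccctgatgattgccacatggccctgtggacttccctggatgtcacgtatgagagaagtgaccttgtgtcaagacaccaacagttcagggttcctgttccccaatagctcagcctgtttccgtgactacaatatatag
The HNF4-type element was found in Fga, 78 to 70 bases before the start, and in F7, 34 to 26 bases before the start, so in 2 of the 8 windows. Of all 32851 mouse windows of this length, 6.36% held it. The HNF1 half-site was found in Fga, 45 to 38 bases before the start, and 2.54% of all windows held it. A match is a description of letters and not of a bound site.

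F10 and F2 were the members that rose in Entero-hepato mTECs. F10 had 129, 67.9 and 71.3 CPM in the Entero-hepato libraries, against 10.8, 2.83 and 7.67 CPM in the Non-entero-hepato libraries. Every Entero-hepato library lay above every Non-entero-hepato library. The fitted log2 fold change was 3.62 (SE 0.41, adjusted p = 0.000151, edgeR). F2 had 79.2, 53.1 and 45.3 CPM in Entero-hepato mTECs, against 10.3, 7.83 and 15.2 CPM in Non-entero-hepato mTECs. These groups did not overlap either, and the log2 fold change was 2.39 (SE 0.29, adjusted p = 0.000219, edgeR). So 2 of the 8 members tested were higher and 0 lower, where 22.7% of all 16811 genes tested were called higher and 21.8% lower. The members' share is near that background.

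The fibrinogen chain genes did not pass the test between these gates. Fgg averaged 26.1 ± 4.92 CPM in Entero-hepato mTECs and 24.3 ± 9.50 CPM in Non-entero-hepato mTECs (SD, n = 3 each), with a log2 fold change of 0.09 (SE 0.28, adjusted p = 0.826, edgeR). Fga had 15.1, 4.47 and 18.4 CPM in Entero-hepato libraries, against 3.38, 9.79 and 13.9 CPM in Non-entero-hepato libraries. Fgb had 20.9, 8.20 and 1.76 CPM in Entero-hepato libraries, against 0.211, 11.7 and 11.1 CPM in Non-entero-hepato libraries. The groups overlapped for all 3 chains. The summed hepatocyte markers did not overlap, but the genes of that list were mixed. Apoa1, Apob, Ttr and Serpina1b were called higher, Ahsg lower, and Alb and Hp did not pass. The log2 fold changes were 0.46 (SE 0.60) for Fga and 0.38 (SE 1.02) for Fgb.

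Among the other factors, F7 had 5.81, 5.78 and 9.66 CPM in Entero-hepato mTECs, against 2.53, 1.52 and 5.66 CPM in Non-entero-hepato mTECs. The groups did not overlap, but the log2 fold change of 1.11 (SE 0.54) did not pass the test (adjusted p = 0.126, edgeR). F5 (0.35, SE 0.42) and Proc (1.42, SE 0.91) had overlapping groups and did not pass. F11 and Plg were too low to pass the count filter. F11 had 33, 7 and 3 reads in the Entero-hepato libraries, against 0, 0 and 1 read in the Non-entero-hepato libraries, and DESeq2, run as an alternative with no count filter, called it higher. Plg had 4, 0 and 6 reads, against 0, 4 and 0 reads. Summed markers of red cells were 158 to 224 CPM in Entero-hepato mTECs, against 15.6 to 26.7 CPM, those of platelets and megakaryocytes 49.5 to 139 CPM, against 19.6 to 35.5 CPM, and those of macrophages 634 to 1030 CPM, against 285 to 433 CPM. Their part in the F10 and F2 results was not tested. Scaling by plain totals moved the median log2 fold change of all genes to -0.412, against -0.0468 here.

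**Figure D1:**
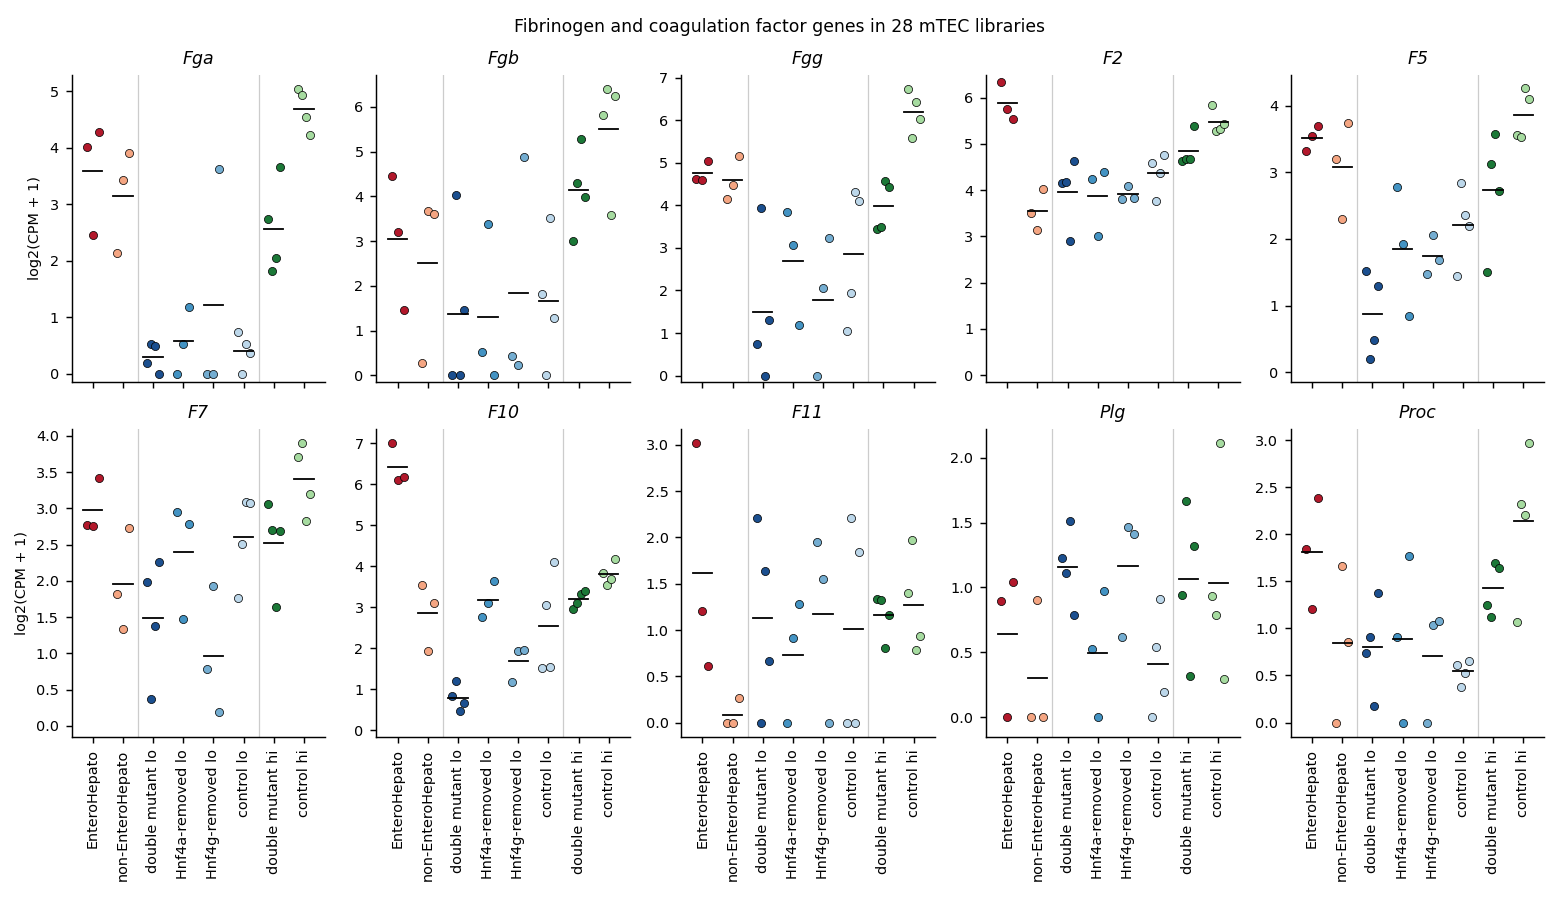
Level of each of the 10 genes in each library as log2(CPM + 1), on a separate scale per gene; points are libraries, coloured by group, and bars are group means. The Entero-hepato libraries lie above all others for F10 and above the Non-entero-hepato libraries for F2, and the control mTEChi libraries lie above the double mutant mTEChi libraries for Fga and Fgg.

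In mTEChi, the fibrinogen chain genes Fgg and Fga were lower in the double mutant. Fgg had 9.81, 10.2, 22.7 and 20.4 CPM in double mutant mTEChi, against 105, 46.8, 84.4 and 64.0 CPM in control mTEChi. The highest double mutant library lay below the lowest control library. The log2 fold change was -2.23 (SE 0.31, adjusted p = 0.00392, edgeR). Fga had 5.67, 2.51, 3.12 and 11.7 CPM in double mutant mTEChi, against 32, 29.7, 22.4 and 17.7 CPM in control mTEChi. These groups did not overlap either, and the log2 fold change was -2.12 (SE 0.42, adjusted p = 0.0469, edgeR). The Fga call was lost in 7 of the 8 fits that left out 1 library, all but the one without double mutant replicate 4, with adjusted p from 0.0688 to 0.134, and the Fgg call in 0 of the 8.

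Fgb, the third chain, had 7.05, 18.6, 37.9 and 14.9 CPM in double mutant mTEChi, against 55.1, 83.7, 11 and 75.3 CPM in control mTEChi. Control replicate 3 was low for Fgb and lay among the double mutant libraries, although its Fgg level of 84.4 CPM was the second highest. The log2 fold change of Fgb was -1.51 (SE 0.54) and did not pass the test (adjusted p = 0.314, edgeR). With no filter on low counts, edgeR called Fgb lower too (log2 fold change -1.51, SE 0.23, adjusted p = 1.22e-07). Fgb had passed the filter, so its reads were the same in both fits. The fold hardly changed and the SE was smaller, so this call does not rest on more evidence for Fgb. The spread of Fgb between libraries of a group, as edgeR's biological coefficient of variation, was 0.520, against 0.202 for genes of its level. For Fgg it was 0.296, against 0.189, and for Fga 0.401, against 0.298. Lrat and Plrg1, the genes that flank the fibrinogen cluster, had log2 fold changes of -0.57 (SE 0.29) and 0.14 (SE 0.13), and neither passed the test.

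The other members tested in mTEChi had negative log2 fold changes that did not pass the test. F2 had 23.6, 24.6, 24.3 and 40.9 CPM in double mutant mTEChi, against 56.4, 37.7, 38.9 and 41.7 CPM in control mTEChi, and replicate 4 of the double mutant lay within the control range (log2 fold change -0.61, SE 0.21, adjusted p = 0.289, edgeR). F10 had 6.74, 7.70, 9.10 and 9.57 CPM in double mutant mTEChi, against 13.4, 10.7, 11.9 and 17.2 CPM in control mTEChi. The F10 groups did not overlap, yet the log2 fold change of -0.68 (SE 0.26) did not pass (adjusted p = 0.352, edgeR). F5 (-1.09, SE 0.43), F7 (-0.97, SE 0.41) and Proc (-1.16, SE 0.55) had overlapping groups.

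In all, 0 of the 8 members tested in mTEChi were called higher and 2 lower, where 0.038% of all 18413 genes tested were called higher and 0.597% lower. At an unadjusted p under 0.05, 7 of the 8 were lower, where 6.04% of all genes were. F11 and Plg did not pass the count filter, and their estimates without a filter were -0.28 (SE 0.79) and -0.11 (SE 0.82). In bulk libraries, fewer cells that express a gene and less RNA per cell cannot be told apart. Summed hepatocyte markers overlapped between the genotypes, at 217 to 280 CPM in double mutant mTEChi and 199 to 294 CPM in control mTEChi, and the enterocyte markers did not, at 262 to 323 CPM and 709 to 817 CPM. Of the 7 hepatocyte markers, 2 fell in the double mutant mTEChi, Serpina1b (-4.45, SE 0.70) and Ttr (-3.80, SE 0.66). Aire, the regulator that marks mature mTECs, had a log2 fold change of 0.16 (SE 0.17) and overlapped. Macrophage markers summed to 1140 to 1520 CPM in double mutant mTEChi and 1250 to 1700 CPM in control mTEChi, and their part in these results was not tested.

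**Figure D2:**
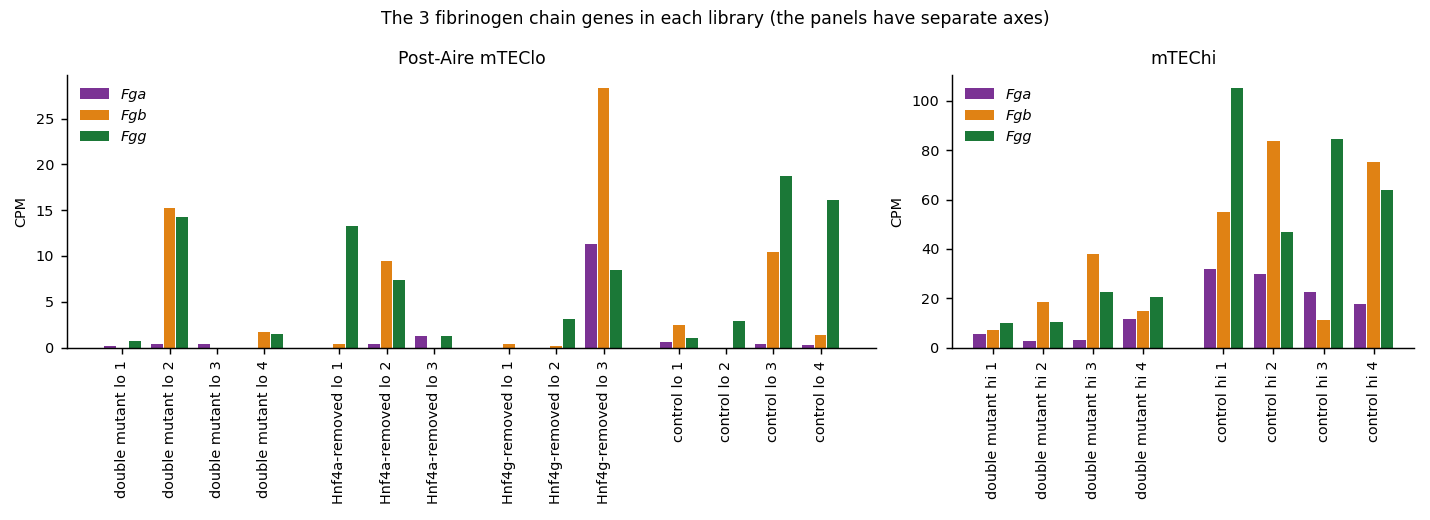
CPM of Fga, Fgb and Fgg in each post-Aire mTEClo library (left) and each mTEChi library (right, with its own axis); each bar is 1 gene in 1 library. All 3 chains are low in most mTEClo libraries, with high bars in single libraries of each genotype, and Fga and Fgg are lower in every double mutant mTEChi library than in every control mTEChi library.

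In post-Aire mTEClo, F10 was the member that fell in the double mutant. It had 0.803, 1.31, 0.396 and 0.582 CPM in double mutant mTEClo, against 1.85, 7.40, 1.92 and 16.2 CPM in control mTEClo. The double mutant libraries rested on 6, 9, 3 and 4 reads. The groups did not overlap, although 2 control libraries lay close to the double mutant. The log2 fold change was -3.12 (SE 0.68, adjusted p = 0.045, edgeR). The call was lost in 6 of the 8 fits that left out 1 library, which were all but those without replicate 1 or 3 of the control, with log2 fold changes from -3.48 to -2.25 and adjusted p from 0.0743 to 0.164. Of the 8 members tested, 0 were called higher and 1 lower, where 0.16% of all 18775 genes tested were called higher and 0.581% lower.

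In neither single mutant did F10 pass the test against control. F10 had 5.84, 7.66 and 11.5 CPM in Hnf4a-removed mTEClo, all within the control range, and the log2 fold change against control was 0.27 (SE 0.63). It had 1.25, 2.82 and 2.91 CPM in Hnf4g-removed mTEClo, with a log2 fold change of -1.54 (SE 0.68) that did not pass the test (adjusted p = 0.59, edgeR). Set against the Hnf4a-removed libraries, which lay above every double mutant library, the double mutant had a log2 fold change of -3.39 (SE 0.70) and just missed the threshold (adjusted p = 0.0558, edgeR). Set against the Hnf4g-removed libraries, it had a log2 fold change of -1.58 (SE 0.72, adjusted p = 0.467, edgeR). The comparisons with control share the control libraries, and the ones with the double mutant share the double mutant libraries.

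F7, which encodes factor VII, had 2.94, 0.290, 1.58 and 3.79 CPM in double mutant mTEClo and 6.71, 1.77 and 5.91 CPM in Hnf4a-removed mTEClo. It had 0.716, 2.82 and 0.138 CPM in Hnf4g-removed mTEClo, against 2.38, 4.68, 7.52 and 7.44 CPM in control mTEClo. The log2 fold changes against control were -1.35 (SE 0.73) in the double mutant, -0.20 (SE 0.76) in Hnf4a-removed and -2.19 (SE 0.86) in Hnf4g-removed mTEClo, and none of these passed the test. F5 had 1.87, 0.145, 0.396 and 1.46 CPM in double mutant mTEClo, against 1.72, 6.19, 4.13 and 3.58 CPM in control mTEClo. Double mutant replicate 1 lay within the control range, and the log2 fold change of -1.99 (SE 0.71) did not pass (adjusted p = 0.239, edgeR). F2 had a log2 fold change of -0.34 (SE 0.36), with overlapping groups.

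The members called between single mutants and control, or between the double and single mutants, numbered 0 in each comparison by edgeR. For Hnf4a-removed against control mTEClo, 0 of 8 members had an unadjusted p under 0.05, where 6.02% of all genes tested did, DESeq2 called 0, and edgeR called 0.00533% of all genes tested after adjustment. For Hnf4g-removed against control mTEClo, 2 of 8 members, F7 and F10, had an unadjusted p under 0.05, where 8.19% of all genes did, DESeq2 called 0, and edgeR called 0.0959% of all genes after adjustment. For the double mutant against Hnf4a-removed mTEClo, 2 of 8 members, F10 and F5, had an unadjusted p under 0.05, where 11% of all genes did, DESeq2 called 1, F10, and edgeR called 0.293% of all genes after adjustment. For the double mutant against Hnf4g-removed mTEClo, 1 of 8 members, F10, had an unadjusted p under 0.05, where 10.3% of all genes did, DESeq2 called 0, and edgeR called 0.0107% of all genes after adjustment.

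Aire had 143 to 228 CPM in double mutant mTEClo, against 204 to 550 CPM in control mTEClo. The groups overlapped, and the log2 fold change of -1.07 (SE 0.38) did not pass the test (adjusted p = 0.242, edgeR). The part of Aire levels in the F10 result was not tested. Summed enterocyte markers were 215 to 288 CPM in double mutant mTEClo, against 485 to 690 CPM in control mTEClo. Summed hepatocyte markers overlapped, at 108 to 214 CPM and 102 to 224 CPM, as did macrophage markers, at 166 to 478 CPM and 333 to 613 CPM. Of the 7 hepatocyte markers, Serpina1b (-4.88, SE 0.82) and Ttr (-4.92, SE 0.94) fell in double mutant mTEClo.

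Fgb and Fgg varied widely between mTEClo libraries of the same group. Fgb had 0, 15.2, 0 and 1.75 CPM in double mutant mTEClo, 0.438, 9.42 and 0 CPM in Hnf4a-removed mTEClo, 0.358, 0.176 and 28.4 CPM in Hnf4g-removed mTEClo, and 2.52, 0, 10.5 and 1.43 CPM in control mTEClo. A single library carried most of the Fgb reads in each genotype. Fgg had 0.669, 14.2, 0 and 1.46 CPM in double mutant mTEClo, 13.3, 7.36 and 1.28 CPM in Hnf4a-removed mTEClo, 0, 3.17 and 8.44 CPM in Hnf4g-removed mTEClo, and 1.06, 2.87, 18.7 and 16.2 CPM in control mTEClo. The biological coefficient of variation within groups was 1.70 for Fgb, against 0.470 for genes of its level, and 1.19 for Fgg, against 0.429. For F2 it was 0.354, against 0.264, for F10 0.592, against 0.494, and for F11 1.40, against 0.679.

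The 3 chains did not always rise in the same mTEClo library. Hnf4g-removed replicate 3 was high for all 3, with 82 reads of Fga, 205 of Fgb and 61 of Fgg. Double mutant replicate 2 held 105 reads of Fgb and 98 of Fgg but 3 of Fga. Hnf4a-removed replicate 1 held 91 reads of Fgg but 3 of Fgb and 0 of Fga, and control replicate 4 held 113 reads of Fgg, 10 of Fgb and 2 of Fga. Without Hnf4g-removed replicate 3, no mTEClo library held more than 8 reads of Fga. Each library was made from 1000 sorted cells, and reads were not counted by molecule, so these values are reads and not numbers of transcripts. With this spread, the log2 fold changes of the double mutant against control were 0.23 (SE 1.60) for Fgb and -1.25 (SE 1.19) for Fgg, and neither a rise nor a fall was detectable. Fga and Proc did not pass the count filter in mTEClo.

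F11 and Plg stayed low in every group. F11 had 0 to 33 reads and Plg 0 to 23 reads in any library. F11 had 27, 0, 16 and 4 reads in double mutant mTEClo, against 0, 24, 0 and 18 reads in control mTEClo, with a log2 fold change of 0.04 (SE 1.32). Plg had 10, 8, 14 and 5 reads in double mutant mTEClo, against 0, 3, 6 and 1 read in control mTEClo. Its log2 fold change of 1.75 (SE 0.92) did not pass the test (adjusted p = 0.474, edgeR).

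**Figure D3:**
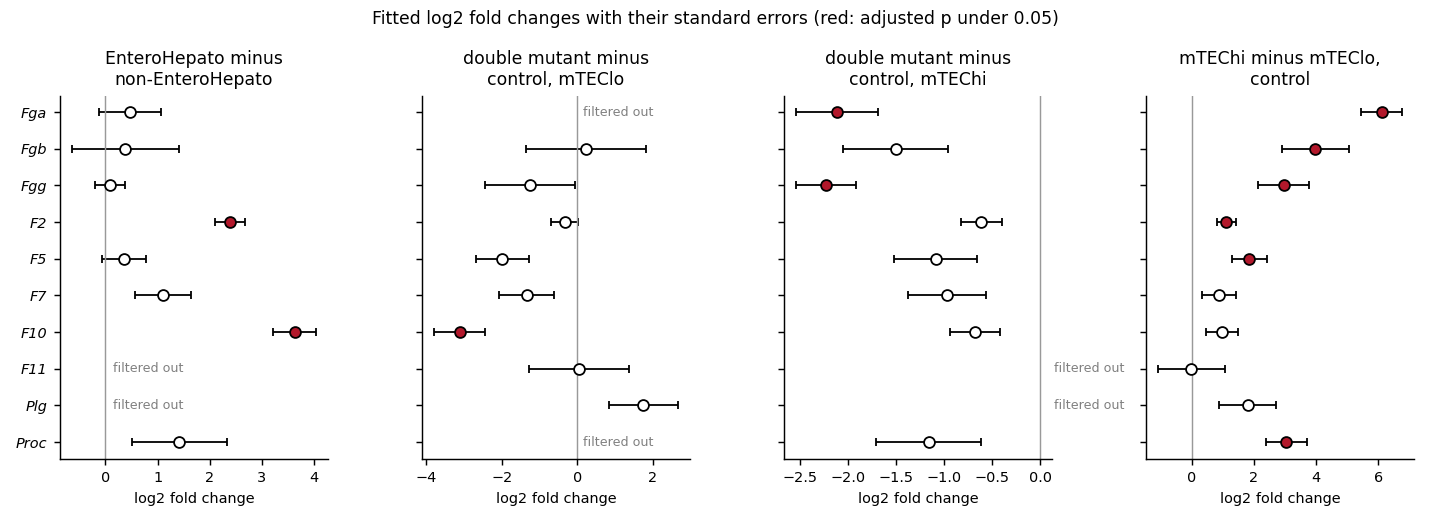
Fitted log2 fold changes (points) with standard errors (bars) of the 10 genes in 4 comparisons, each with its own horizontal axis; red points passed an adjusted p of 0.05 and "filtered out" marks genes too low to test. F10 and F2 passed between the wild-type gates, F10 in mTEClo, Fga and Fgg in mTEChi, and 6 genes between the control subsets.

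Between the subsets, control mTEChi held more fibrinogen RNA than control post-Aire mTEClo. In control thymi, Fga averaged 25.5 ± 6.57 CPM in mTEChi and 0.348 ± 0.278 CPM in mTEClo (SD, n = 4 each), a log2 fold change of 6.10 (SE 0.66, adjusted p = 1.13e-06, edgeR). Fgb averaged 56.3 ± 32.5 CPM in control mTEChi and 3.60 ± 4.69 CPM in control mTEClo, with a log2 fold change of 3.97 (SE 1.08, adjusted p = 0.00677, edgeR). Fgg averaged 75.2 ± 25.4 CPM and 9.70 ± 9.03 CPM in these groups, with a log2 fold change of 2.96 (SE 0.82, adjusted p = 0.00757, edgeR). The mTEChi libraries lay above the mTEClo libraries for all 3 chains without overlap. F2 (1.11, SE 0.30), F5 (1.85, SE 0.56) and Proc (3.04, SE 0.67) also rose, with adjusted p of 0.00716, 0.0129 and 0.00143 by edgeR.

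So 6 of the 10 members tested were higher in control mTEChi and 0 lower, where 22.4% of all 20095 genes tested were called higher and 20.5% lower. Fga and Proc had 0 to 5 and 2 to 4 reads in the control mTEClo libraries and passed the count filter through mTEChi. In the fit on these 2 groups alone, 5 members were called and Proc was too low to be tested. F7 (0.88, SE 0.53), F10 (0.97, SE 0.51), F11 (-0.01, SE 1.07) and Plg (1.79, SE 0.92) did not pass. Between double mutant mTEChi and double mutant mTEClo, 4 of 10 members were higher and 0 lower, where 27.7% of all genes were called higher and 23.1% lower. The members called were Fga with a log2 fold change of 4.49 (SE 0.68), F10 with 3.41 (SE 0.61), F5 with 2.74 (SE 0.62) and F2 with 0.83 (SE 0.31). Fgb (2.238, SE 1.03, adjusted p = 0.08, edgeR) and Fgg (1.985, SE 0.86, adjusted p = 0.0641, edgeR) had overlapping groups and did not pass. The double mutant mTEClo libraries held 0 to 3 reads of Fga and 3 to 9 of F10, and Fga passed the count filter through mTEChi here too. The F2 call was lost in 4 of 8 fits that left out 1 library. These were the fits without double mutant mTEClo replicate 1, 2 or 3 or double mutant mTEChi replicate 4 (adjusted p from 0.0507 to 0.13, edgeR). Macrophage markers summed to 1250 to 1700 CPM in control mTEChi, against 333 to 613 CPM in control mTEClo, with 6 of 7 called higher. Fibroblast markers summed to 132 to 214 CPM, against 17.6 to 54.2 CPM, with Dcn and Col1a1 called higher and Pdgfra lower. Thymocyte markers summed to 43.3 to 64 CPM, against 11 to 23.3 CPM, with 5 of 6 called higher. Platelet markers summed to 71.2 to 90.1 CPM, against 14 to 30.4 CPM. Of these, 4 of 6 tested were called higher, and Gp1bb was at 0 in every control mTEChi library. Endothelial markers went the other way, at 47.2 to 59.4 CPM, against 128 to 164 CPM, with Tek and Esam called lower. Their part in these differences was not tested.

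Whether the effect of losing both Hnf4 genes differed between the subsets was tested as an interaction. edgeR called 0 of 10 members after adjustment, and 0.0597% of all genes, and DESeq2 called 0 members. At an unadjusted p under 0.05 there were 2 of the 10 members, F10 and Proc, and 11.4% of all genes. F10 had an interaction of 2.44 (SE 0.79, adjusted p = 0.225, edgeR), as its log2 fold change was -0.68 in mTEChi and -3.12 in mTEClo. Proc had an interaction of -1.95 (SE 0.91, adjusted p = 0.429, edgeR). The interactions of Fga and Fgg were -1.62 (SE 1.09) and -0.98 (SE 1.17), so a difference between the subsets was not shown for the genes called in mTEChi.

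Divided by exon length, the order of the members changed from group to group. The level per kb of exon was 32.7 ± 12.6 CPM for F10 in Entero-hepato mTECs, followed by F2 at 12.9 ± 3.86 and Fgg at 12.5 ± 2.35 (SD, n = 3). F2 and Fgg did not differ beyond their spread. In double mutant mTEChi, Fgg had 7.54 ± 3.21 CPM per kb, F2 6.17 ± 1.82 and Fgb 5.15 ± 3.44 (SD, n = 4), which overlap. In control mTEChi, Fgg led at 35.9 ± 12.1 CPM per kb, followed by Fgb at 14.8 ± 8.52, F2 at 9.51 ± 1.88 and Fga at 8.46 ± 2.18 (SD, n = 4). Plg was the lowest there, at 0.350 ± 0.373 CPM per kb, with F11 next at 0.691 ± 0.443. In control mTEClo, Fgg at 4.64 ± 4.31 CPM per kb and F2 at 4.42 ± 1.26 were the highest and did not differ beyond their spread.

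Proz, the neighbour of F10, was on the list of other coagulation genes and was called in every comparison of Entero-hepato gates and double mutants with their controls. It had 154, 102 and 128 CPM in Entero-hepato mTECs, against 21.7, 28.1 and 16 CPM in Non-entero-hepato mTECs, a log2 fold change of 2.53 (SE 0.22, adjusted p = 3.55e-05, edgeR). In mTEClo it had 8.17, 2.76, 5.55 and 3.79 CPM in the double mutant, against 12.3, 16.6, 14.9 and 17.6 CPM in the control, a log2 fold change of -1.59 (SE 0.34, adjusted p = 0.0386, edgeR). In mTEChi it had 12.9, 14.6, 13.1 and 9.70 CPM in the double mutant, against 32.4, 32.9, 29.8 and 32.3 CPM in the control, a log2 fold change of -1.34 (SE 0.18, adjusted p = 0.00362, edgeR). The groups did not overlap in any of these 3 comparisons. The call in mTEClo was lost in 6 of the 8 fits that left out 1 library, all but those without replicate 1 of either genotype (adjusted p from 0.088 to 0.122, edgeR), and the other calls in none. F7, on the other side of F10, passed the test in none of them.

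**Figure D4:**
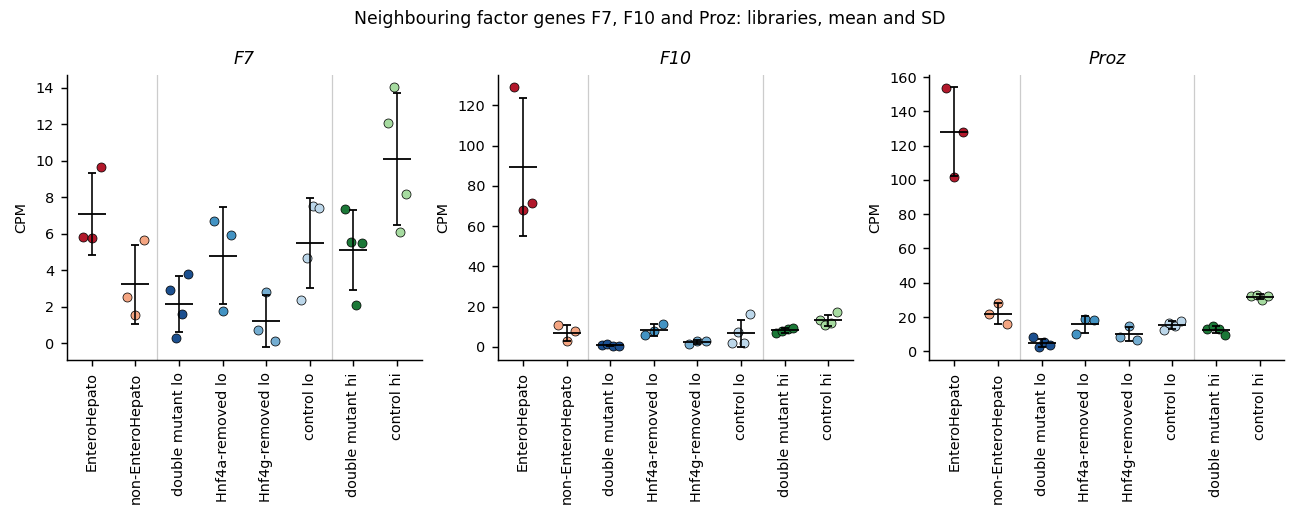
CPM of the neighbouring genes F7, F10 and Proz in each library (points), with group means and standard deviations (bars), on a separate linear axis per gene. F10 and Proz are highest in the Entero-hepato libraries, and F7 is highest in control mTEChi.

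The rest of the pathway was read from 46 other coagulation genes. Between the wild-type gates, 22.7% of all genes tested were called higher in Entero-hepato mTECs and 21.8% lower. Of the 39 other coagulation genes tested, 14 were higher and 4 lower. Their median log2 fold change was 0.532, against -0.0468 over all genes tested. Those called higher included Serpina10, the protein Z-dependent inhibitor of factor Xa, Serpind1, which encodes heparin cofactor II, F13b, the carrier subunit of the clot-crosslinking factor XIII, and Vkorc1, the vitamin K epoxide reductase. Those called lower were Anxa2, F2r, Gas6 and Pros1, and Pros1 encodes protein S, the cofactor of protein C. Serpinc1, which encodes antithrombin, had a log2 fold change of 0.21 (SE 0.27) and did not pass.

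In mTEClo, 1 of 38 tested was higher in the double mutant and 2 lower, where 0.16% and 0.581% of all genes were. The median log2 fold change was -0.174, against -0.00147 over all genes. The gene called higher was Anxa2, which encodes a plasminogen-binding annexin (0.41, SE 0.08). The lower ones were Proz and Cpb2, the carboxypeptidase that slows fibrinolysis (-1.88, SE 0.40). Leaving out 1 library gave 0 to 2 calls in place of 3, with 0 when replicate 3 or 4 of either genotype was left out. In mTEChi, 0 of 38 were higher in the double mutant and 1, Proz, lower, where 0.038% and 0.597% of all genes were. Each fit that left out 1 library also called 1. The median was -0.0842, against 0.0136 over all genes. The 4 comparisons that involve a single mutant, and the interaction, had 0 called by edgeR, and DESeq2 called 0 to 3. At an unadjusted p under 0.05 there were 6 to 9 of the 38 tested with a single mutant and 6 of the 40 in the interaction, where 6.02% to 11% and 11.4% of all genes were. Between control mTEChi and control mTEClo, 19 of 40 were higher and 5 lower, where 22.4% and 20.5% of all genes were. The median was 0.837, against 0.0389. Those lower were F12, Thbd, Serpina10, Anxa2 and Vkorc1, and of these Serpina10 and Vkorc1 were higher between the gates. Serpinc1 was among the higher ones (2.56, SE 0.23), and so were Kng1 and Kng2, which encode kininogens, and Tfpi, the tissue factor pathway inhibitor. Between double mutant mTEChi and double mutant mTEClo, 21 of 40 were higher and 6 lower, where 27.7% and 23.1% of all genes were. The median was 1.25, against 0.0641.

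The gate comparison and the mTEChi comparison share no library. All 8 members tested in both had a log2 fold change above 0 between the gates and below 0 in double mutant mTEChi, and 17 of the 37 other coagulation genes tested in both did. The share of all genes with these signs was not counted, and the lists were chosen with earlier results of these data known. These counts therefore do not set the members apart. Between the gates only 2 of the 8 passed the test. The gate values of Fga (0.46, SE 0.60), Fgb (0.38, SE 1.02), Fgg (0.09, SE 0.28) and F5 (0.35, SE 0.42) were smaller than their SE, so their signs are uncertain. The members called differed between them. F10 and F2 were called between the gates, and Fga and Fgg in mTEChi, and Fgg, with the value farthest below 0 in mTEChi, had the value nearest to 0 between the gates.

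**Figure D5:**
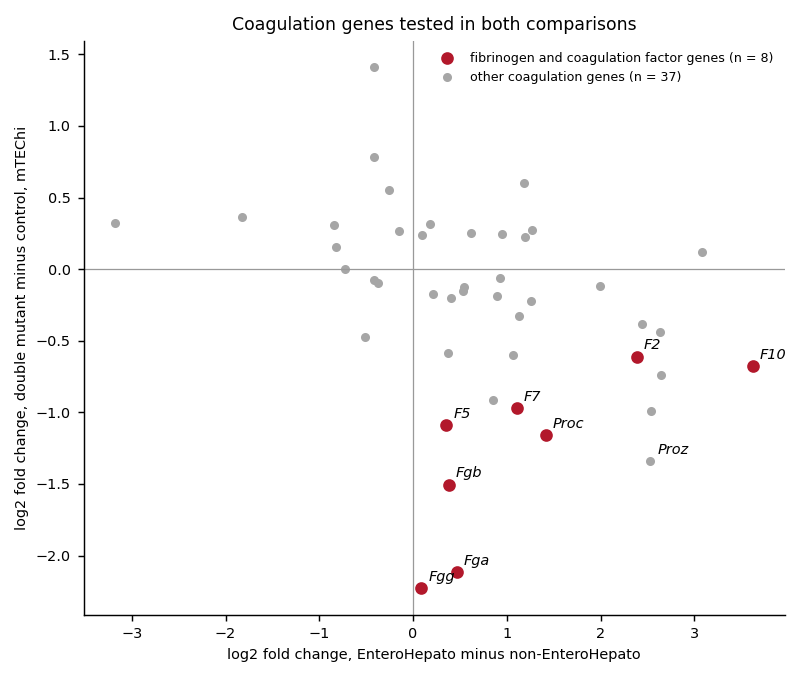
Log2 fold changes of coagulation genes tested in both comparisons, with Entero-hepato minus Non-entero-hepato on the horizontal axis and double mutant minus control mTEChi on the vertical axis; red points are the 8 members tested in both and grey points the 37 other coagulation genes. All 8 red points lie in the lower right part of the plot, with F10 farthest right and Fga and Fgg lowest.

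Of 16864 genes with a median of at least 10 reads, those with provisional symbols, such as Gm, Rik or pseudogene names, were left out. The rest were ranked for likeness to each member by Pearson's r of log2 CPM over the 28 libraries. These libraries share group and preparation, so the r values describe these groups. F10 was most like Lypd8 (r = 0.925), Cybrd1 (r = 0.922) and Abcg5 (r = 0.922). F2 was most like Apobec1 (r = 0.858), Srxn1 (r = 0.856) and Casp1 (r = 0.843). Fgg was most like Kmo (r = 0.888), Adcy1 (r = 0.881) and Epha3 (r = 0.868), and Fga was most like Snx29 (r = 0.889), Prex1 (r = 0.888) and Tfdp1 (r = 0.884). Fgb had its highest r with Trat1, at 0.803.

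The genes above were picked for the highest r, so lower r between members follows from the ranking. Among the genes ranked for Fgb, Fgg stood at rank 10 and Fga at rank 44. For Fgg, Fgb stood at rank 344 and Fga at rank 368, and for Fga, Fgg stood at rank 812 and Fgb at rank 1084. Among the fibrinogen chains, r was 0.715 for Fga with Fgb, 0.739 for Fga with Fgg and 0.742 for Fgb with Fgg. F10 had r of 0.699 with F5, 0.672 with F2, 0.653 with Fgg and 0.553 with F7, its neighbour. The lowest r between members was 0.136, for Fgb with F7. F11, Plg and Proc had a median under 10 reads and were not ranked.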

How the data were processed

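Per the labels' protocols, polyadenylated RNA of 1000 sorted cells was amplified as cDNA, cut by Tn5 and read in paired ends of 38 bases. There were no molecular identifiers and the kit does not mark strand. The authors deposited read counts per gene, whole numbers without normalization, made with STAR 2.7.3a and featureCounts on mm10, per the submitters' processing notes. The annotation and counting options are not stated there. 0 columns lacked a sample.

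The 10 genes and all gene lists were chosen with earlier results of these data known. Libraries were grouped by the labels. Counts were tested with edgeR 4.0.16 (R 4.3.3) on trimmed-mean factors after its expression filter (minimum count 10), with group as the factor, in the whole table. All members and each called gene of the other lists could be named. The alternatives were DESeq2 1.42.0, no filter, relative-log size factors, a replicate block, a fit on 2 groups and leaving out each library. CPM per kb used GENCODE M21 exon lengths. The edgeR test was tried on counts simulated for some of the comparisons. Changes were set only in well-counted genes, so this does not cover members with few reads.

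All 36 pairs of replicates differed by more than counting error (chi-square per degree of freedom from 5.93 to 24.2). Nothing in the labels states that the numbered thymi are of different mice, and the tests therefore see only the spread among libraries, which may be technical. Of the table's 55011 symbols, 52936 were found in GENCODE M21.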

Additional observations from a re-analysis of the deposited data

Results flagged for a closer look

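In a group of 4 libraries, the gap of a value to the nearest other value was divided by the group's range. A value stands apart if this passes Dixon's critical value of 0.829. Chance gives that in about 1 in 20 groups of normally distributed values, which CPM with many low values need not be. Of the 40 groups of 4 tested for the 10 genes, 3 met this, which is near that rate. In double mutant mTEClo, Fgb was 15.2 CPM in replicate 2, against 1.75 CPM in the next library, and Fgg was 14.2 CPM in the same library, against 1.46 CPM in the next. Fga had 3 reads there. In double mutant mTEChi, F2 was 40.9 CPM in replicate 4, against 24.6 CPM in the next library, and Fga was also highest in that library, at 11.7 CPM. The cause of these values was not tested.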

How the results depend on the processing

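Of 197 alternative values for the 15 member log2 fold changes that passed the test, 176 kept direction and call, 21 kept direction only and 0 reversed. Fits in which a member was too low to be tested gave no value and are not counted. Proc was so in the fit on 2 groups between the control subsets, where its call was lost. For the double mutant against control mTEClo, where 1 member, F10, was called, 0 were called in the fit on 2 groups (adjusted p 0.0562, edgeR), and leaving out 1 library gave 0 to 1. For the double mutant against control mTEChi, where 2 were called, leaving out 1 library gave 1 to 2, and 3, with Fgb, were called with no filter. With no filter, 1 member, Fga, was called for Hnf4g-removed against control mTEClo and 1, Fga, for the double mutant against Hnf4g-removed mTEClo, both resting on 1 library with 82 reads. For the double mutant against Hnf4a-removed mTEClo, 1 member, F10, was called in place of 0 by DESeq2, with no filter, with a replicate block, in the fit on 2 groups and with the mTEClo library of lowest Aire in each of the 3 other genotypes left out. Those 3, replicate 1 of the control and of both single mutants, were chosen after the data were seen, and their removal widens the gap in Aire to the double mutant. The cause of these changes was not tested.

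Among the other coagulation genes, no filter gave 6 calls in place of 3 for the double mutant against control mTEClo, 2 in place of 1 in mTEChi, 5 in place of 0 against Hnf4a-removed mTEClo, and 1 in place of 0 in both single mutants against control, in the double mutant against Hnf4g-removed mTEClo and in the interaction. DESeq2 gave 3 against Hnf4a-removed mTEClo, 1 against Hnf4g-removed mTEClo and 1 in the interaction. With these 3 libraries left out, each of the comparisons of the double mutant with a single mutant had 1. Leaving out 1 library gave 0 to 2 for the double mutant against control mTEClo and 0 to 1 against Hnf4a-removed mTEClo. Over all genes, DESeq2 called 460 in place of 139 in double mutant against control mTEClo and 413 in place of 117 in mTEChi.

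Same-numbered libraries did not deviate together (correlations from -0.0222 to 0.181, and every pair over 0.1 in no comparison), so the numbers were not taken as pairs. With the replicate block, 0 members in place of 1 were called for the double mutant against control mTEClo (F10 log2 fold change -2.68, adjusted p 0.0583, edgeR), 1 in place of 2 in mTEChi, where Fga had an adjusted p of 0.0791, and 1 other coagulation gene in place of 3 in mTEClo. Reads under about 10 per library limit F11, Plg, Proc and, in mTEClo, Fga and F10.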
